A study of Mus musculus with 6 samples.

Results

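The genes described here encode the structural subunits of the mitochondrial respiratory chain and the ATP synthase, in Th17 cells cultured with or without desIgf1. Members were chosen by gene symbol and not by a threshold on a measured value, at a time when other results of these data were known: the protein-coding genes of the mitochondrial genome (mt-Nd, mt-Co, mt-Cytb and mt-Atp), and the nuclear genes whose symbols begin with Ndufa, Ndufb, Ndufc, Ndufs, Ndufv, Uqcr, Cox4 to Cox8 or Atp5, together with Sdha, Sdhb, Sdhc, Sdhd, Cycs and Cyc1. The Ndufaf assembly factors and 11 pseudogenes with such symbols were left out. This gave 100 members among the 39179 genes in the files, 13 of the mitochondrial and 87 of the nuclear genome. Of these, 88 passed the filter on low counts and were tested (7 mitochondrial and 81 nuclear), among 13846 genes tested in all.

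RNA was sequenced from 3 libraries of cultures with desIgf1, a shortened form of insulin-like growth factor 1 with weak affinity for the IGF-binding proteins, and from 3 libraries of control cultures without it. Both groups began as naive CD4+ T cells from the spleen of C57BL/6 mice in which human CD2 reports Il17a, Thy1.1 reports Ifng and GFP reports Foxp3. All cultures lasted 5 days and held soluble anti-CD3 at 5 µg/mL, TGF-β at 2.5 ng/mL, IL-6 at 20 ng/mL, antibodies to IFN-γ and IL-4 at 10 µg/mL each, and irradiated splenocytes from which CD4+ cells had been removed. The dose of desIgf1 was 30 ng/mL. The treatment protocol lists desIgf1 for every library, whereas the titles and the series design separate cultures with and without it, and the groups here follow the titles. The sort took cells positive for human CD2 and negative for Thy1.1 and GFP, so the measurements concern a selected fraction of each culture. The labels do not say whether the libraries came from separate animals or cultures, and p-values therefore measure only the spread between these libraries, which may be technical.

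The respiratory chain passes electrons from NADH (complex I) and succinate (complex II) through coenzyme Q, complex III, cytochrome c and complex IV to oxygen, and the proton gradient built on the way drives the ATP synthase (complex V). Complexes I, III, IV and V combine subunits made inside the mitochondrion from mitochondrial mRNAs with subunits made in the cytosol from nuclear mRNAs, while complex II is wholly nuclear. In most mitochondrial mRNAs the template lies on the heavy strand and the transcripts are cut from long precursors, with mt-Nd6 the member transcribed from the other strand. Activated T cells use respiration together with glycolysis, and nuclear subunit genes are commonly regulated by the factors NRF1, GABP and YY1.

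Counts in genes ran from 34567899 to 47929948 per library. On principal components of log2 CPM, both libraries numbered 3 stood apart on the first (43.5% of the variance) and the groups separated on the second (27.0%). Summed T cell markers were at 6461 to 7003 CPM (counts scaled to a common library total) with desIgf1 and 6363 to 6599 CPM in controls, and all 9 were detected. The 6 Th17 markers summed to 1856 to 2227 CPM with desIgf1 and 1365 to 1523 CPM in controls. B cell markers summed to 1.02 to 1.51 CPM with desIgf1 and 1.13 to 3.32 CPM in controls, and macrophage markers to 11.0 to 16.6 CPM with desIgf1 and 5.21 to 14.2 CPM in controls. Dendritic cell markers summed to 106 to 145 CPM with desIgf1 and 71.3 to 108 CPM in controls, nearly all from Cd74 and H2-Ab1, with Xcr1 and Siglech at 0. CD8 and NK cell markers summed to 7.96 to 13.4 CPM with desIgf1 and 7.13 to 10.0 CPM in controls, with Ncr1 at 0. Erythroid markers reached at most 0.0250 CPM with desIgf1 and 0.0219 CPM in controls, and neutrophil markers at most 0.190 CPM with desIgf1 and 0.716 CPM in controls. Stress and death genes summed to 70.1 to 87.2 CPM with desIgf1 and 65.2 to 104 CPM in controls. The part of these differences in the results below was not tested.

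Parts of the mitochondrial genome have near-identical copies in nuclear DNA, and the copies are shown here because most of the genes without counts have one. The deposited counts hold uniquely placed reads, and 46.4 to 48.7% of the entries in each file were alignments with more than 1 place in the genome, which no gene received. On chromosome 1 of GRCm38, 7 annotated genes on the minus strand between 24611535 and 24616197 are near-identical copies of a run of mitochondrial genes. In that run, mt-Co2 and mt-Atp6 were matched over their whole coding length at 100% identity, mt-Co3 over 783 bases at 100%, and mt-Nd3 at 99.7%. The copy of mt-Nd4 covered 63.6% of the gene at 100% identity, and that of mt-Co1 covered 480 bases at 99.8%. A gene and copy that differ at a single base are shown first, with that base in capitals; counted from 1 at the first base of mt-Nd3, the difference is T3C.
mt-Nd3, chrM:9459-9501, plus strand: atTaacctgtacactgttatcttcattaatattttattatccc
Gm28438, chr1:24613077-24613119, minus strand: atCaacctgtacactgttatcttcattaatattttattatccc
The sequence of mt-Nd4l is shown because no base separates it from its nuclear copy, Gm10222 (chr1:24612407-24612700, minus strand), over 294 bases.
mt-Nd4l, chrM:9877-10170, plus strand: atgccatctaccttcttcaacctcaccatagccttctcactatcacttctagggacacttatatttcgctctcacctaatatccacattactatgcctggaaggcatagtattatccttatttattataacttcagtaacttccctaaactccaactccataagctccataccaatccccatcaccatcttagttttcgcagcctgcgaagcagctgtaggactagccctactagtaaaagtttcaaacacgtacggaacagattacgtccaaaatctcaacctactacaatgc
A read that lies wholly within mt-Nd4l has at least 2 equally good positions in the genome.

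In these files 6 of the 13 mitochondrial members had 0 counts in all 6 libraries: mt-Co2 and mt-Co3 (core subunits of complex IV), mt-Atp6 and mt-Atp8 (the membrane part of complex V), and mt-Nd3 and mt-Nd4l (complex I). The zeros are listed counts of uniquely placed reads and are not read as a lack of expression. Of all 50-base windows of the coding sequence, 100% also occurred in another annotated gene for mt-Co2, mt-Atp6 and mt-Nd4l, 99.9% for mt-Co3 and 99.0% for mt-Nd3. For mt-Atp8 the share was 0; the stretch of chromosome 1 between the copies of mt-Co2 and mt-Atp6 holds no annotated gene, and its sequence was not analysed here. Gm10222 was the 1 of the 7 copies present in the files, and it also had 0 counts in every library. The share was 62.2% for mt-Nd4 and 51.0% for mt-Co1, which were counted from the rest of their length, 8.2% for mt-Nd2 and 7.6% for mt-Nd5. It was 0 for mt-Cytb, mt-Nd1 and mt-Nd6. Complex V therefore had no countable mitochondrial subunit, and complex IV had mt-Co1 alone.

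**Figure D1:**
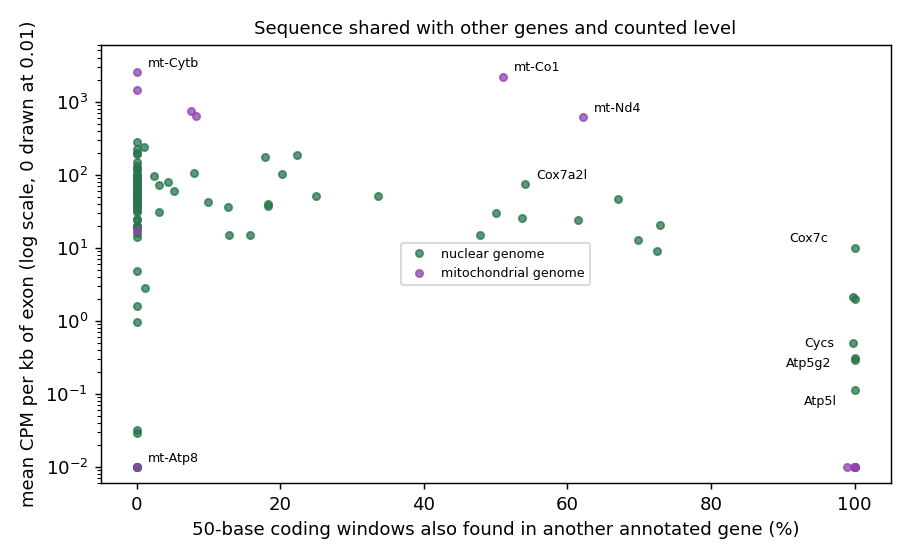
Each point is a member; the x axis gives the percentage of its 50-base coding windows that also occur in another annotated gene, and the y axis its mean level in CPM per kb of exon over the 6 libraries on a log scale, with members at 0 drawn at 0.01. Members with all or nearly all windows shared lie at the low end, while mt-Co1 (51.0%) and mt-Nd4 (62.2%) keep high counts.

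The nuclear members carried the same limit in part, through processed pseudogenes. At least 50% of windows were shared for 15 nuclear members, with a median level of 10.1 CPM per kb, and no window was shared for 51, with a median of 48.9 CPM per kb. For 7 nuclear members all windows, or all but 1, were shared, namely Atp5g1, Atp5g2, Atp5l, Cox7c, Cycs, Ndufab1 and Ndufb4. Their levels of 0.112 to 10.1 CPM per kb are lower limits rather than levels. Cycs, the gene of the electron carrier cytochrome c, stood at 1.85, 1.26 and 0.579 CPM in the desIgf1 libraries and at 0.833, 0.985 and 0.859 CPM in the control libraries, with 10 pseudogenes sharing its windows. The gene sharing most windows with each of these 7 had at most 16 counts in any library.

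Among mitochondrial members that could be counted, all 7 averaged higher with desIgf1, by a median of 0.34 on the log2 scale (range 0.09 to 0.66), and none passed the threshold. In bulk RNA, fewer or more cells of a kind and less or more RNA per cell cannot be told apart, and this holds for every value below. The 81 nuclear members tested had a median log2 fold change of -0.05 (range -0.35 to 0.68), against -0.01 over all 13846 genes tested. With edgeR's quasi-likelihood test and Benjamini-Hochberg adjustment over all genes, 0 members and 0 of all genes (0%) had an adjusted p under 0.05. With the replicate number as a block, 0 members were called beside 44 of all genes (0.318%), and with DESeq2 0 members beside 199 of all genes (1.44%). Voom of limma called 0 members, with a lowest adjusted p of 0.532 among them. Its count over all genes is not given here, so this 0 has no share to be read against. At an unadjusted p under 0.05 without the block, 2 of the 7 mitochondrial members, both higher with desIgf1, and 0 of the 81 nuclear members were past the line, where 8.16% of all genes were and 4.75% were higher. The block gave 5 of 7 mitochondrial members, all higher, and 1 of 81 nuclear members (Ndufv1), which was lower, where 14.3% of all genes were past the line, 9.02% higher and 5.29% lower. The 7 mitochondrial members share a genome and most are cut from long precursors, so they are not independent of each other. Their count past the line is therefore not a count of separate results.

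**Figure D2:**
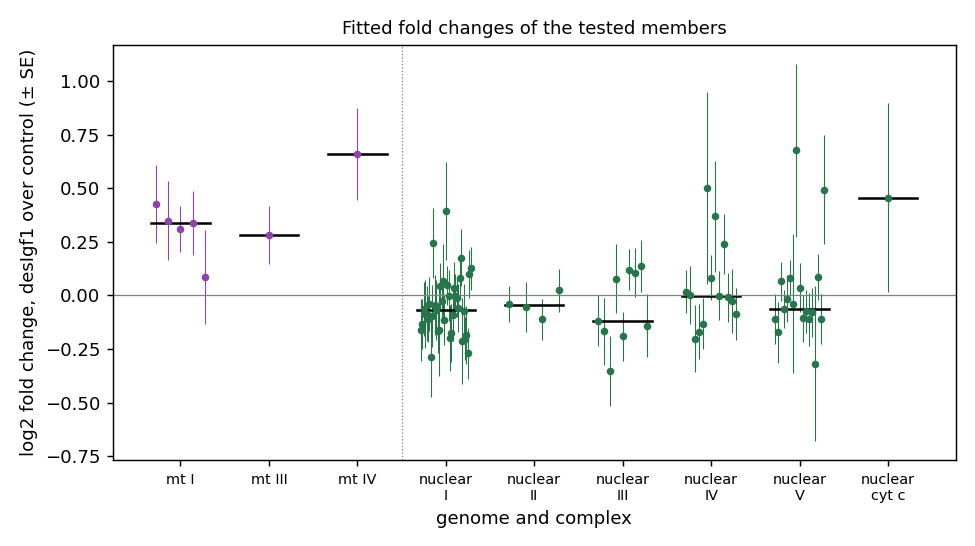
Points are the 88 tested members by genome and complex, with the fitted log2 fold change of desIgf1 over control and its standard error on the y axis; black lines are medians. The mitochondrial points all lie above 0 (0.09 to 0.66), and the nuclear medians of complexes I to V lie between -0.12 and -0.001.

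Of the 7 counted mitochondrial mRNAs, that of complex IV showed the largest difference. mt-Co1, the catalytic core of cytochrome c oxidase, had 4565, 5040 and 2876 CPM in desIgf1 libraries 1 to 3 and 2323, 3047 and 2528 CPM in control libraries 1 to 3. Libraries 1 and 2 with desIgf1 were above every control, while desIgf1 library 3 lay below control 2. The log2 fold change was 0.66 ± 0.22 (SE), with an edgeR adjusted p of 0.517 and of 0.189 with the block. mt-Co1 made up 35.6, 38.3 and 28.2% of the summed mitochondrial members with desIgf1 and 29.5, 28.7 and 30.6% in controls.

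The core subunits of the membrane arm and the quinone-binding junction of complex I followed at smaller sizes. mt-Nd1 had 1735, 1736 and 1300 CPM with desIgf1 and 985, 1467 and 1097 CPM in controls, a log2 fold change of 0.43 ± 0.18 (adjusted p = 0.608 with edgeR, 0.272 with the block). The groups overlapped, as control 2 was above desIgf1 library 3. mt-Nd4, a proton-pumping subunit, had 978, 942 and 877 CPM with desIgf1 and 700, 833 and 722 CPM in controls. It was the 1 mitochondrial member of 7 whose groups did not overlap, where 7.31% of all genes tested had every desIgf1 library above every control; its log2 fold change was 0.31 ± 0.11 (edgeR adjusted p = 0.530, 0.259 with the block).

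mt-Nd5, another proton-pumping subunit, had 1486, 1663 and 1370 CPM with desIgf1 and 1025, 1433 and 1118 CPM in controls (log2 fold change 0.34 ± 0.15). mt-Nd2 had 722, 781 and 692 CPM with desIgf1 and 487, 756 and 479 CPM in controls (0.35 ± 0.19), and its log2 fold change was 0.60 without control 2 and 0.23 without control 3. In both genes control 2 was above at least 1 desIgf1 library, so the groups overlapped. mt-Nd6, from the other strand, was at 8.31, 8.86 and 10.7 CPM with desIgf1 and 6.53, 9.85 and 9.88 CPM in controls, and its log2 fold change of 0.09 ± 0.22 was smaller than its error and ran from -0.087 to 0.18 with 1 library left out. Per kb of exon, mt-Nd5 was counted 42.6 times as highly as mt-Nd6.

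mt-Cytb, the mitochondrial subunit of complex III, had 3320, 3006 and 3081 CPM with desIgf1 and 2359, 3076 and 2302 CPM in controls. Controls 1 and 3 were below all desIgf1 libraries and control 2 lay among them. The log2 fold change was 0.28 ± 0.13, with an edgeR adjusted p of 0.625 (0.384 with the block). It was 0.43 without control 2, which was above the control mean of 2579 CPM. Controls 1 and 3 were below that mean, so leaving either out acts the other way. As counted, mt-Cytb stood at 2498 CPM per kb on average, mt-Co1 at 2198 and mt-Nd1 at 1449 CPM per kb. The mt-Co1 value is a lower limit and the 6 genes without unique reads have no value, so these levels give no order.

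**Figure D3:**
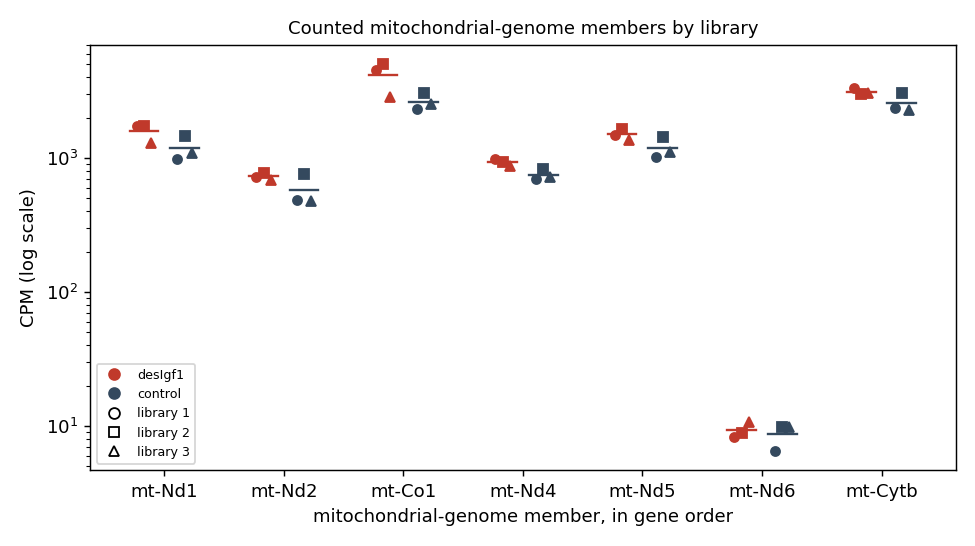
CPM on a log axis of the 7 mitochondrial members with counts, in gene order, for desIgf1 libraries (red, left) and control libraries (dark, right); symbols mark the library number and bars the group mean. The red bar is above the dark bar in all 7 genes, and the points of mt-Nd4 alone do not overlap between groups.

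Same-numbered libraries were compared because the numbers pair the samples in these data. 5 of the 7 mitochondrial members (mt-Nd1, mt-Nd2, mt-Nd4, mt-Nd5 and mt-Co1) were higher with desIgf1 in all 3 pairs, where 20.9% of all genes tested were. These members share a genome and are not independent of each other. mt-Cytb and mt-Nd6 were higher in pairs 1 and 3 and lower in pair 2. The median difference over the 7 was 0.54, 0.18 and 0.28 on the log2 scale in pairs 1, 2 and 3. Of the 81 nuclear members, 9 were higher in all 3 pairs and 23 were lower in all 3, where 17.2% of all genes were lower in all 3; the nuclear medians were -0.06, -0.14 and 0.04.

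When pair 2 was left out of the blocked fit, mt-Nd1, mt-Nd2, mt-Nd4, mt-Nd5 and mt-Cytb had edgeR adjusted p-values of 0.00133 to 0.0388, beside 620 of all genes called (4.42%, with 2.41% higher). Without pair 3, mt-Co1 was the member called (log2 fold change 0.85, adjusted p = 0.0133), beside 1069 of all genes (7.64%, with 4.68% higher). Without pair 1, 0 members were called, beside 72 of all genes (0.513%). No nuclear member was called in any of these fits. Each of them rests on 2 pairs, and the genes called differed with the pair left out. The mitochondrial members called together are not independent of each other.

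**Figure D4:**
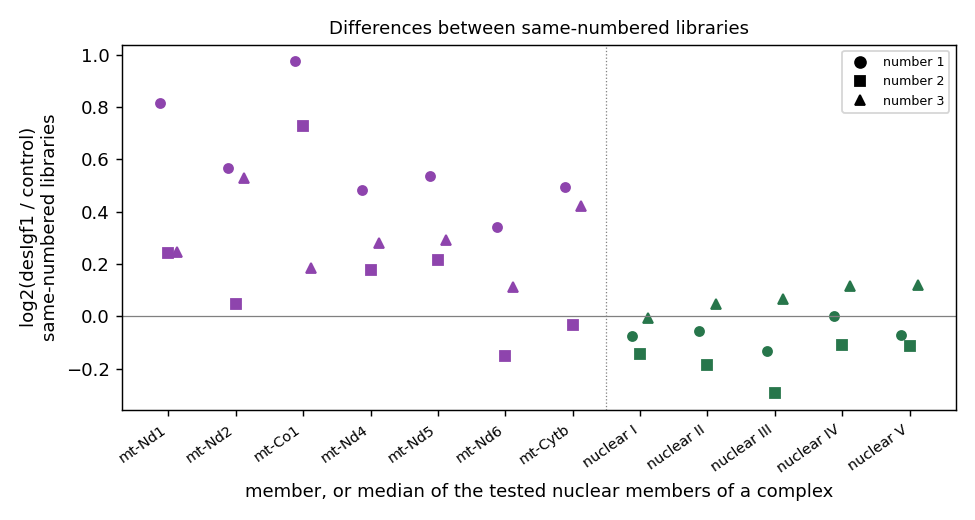
Log2 difference of desIgf1 over control between same-numbered libraries, for the 7 mitochondrial members (purple) and for the median of the tested nuclear members of each complex (green); symbols mark the number. Number 1 gives the largest difference in all 7 mitochondrial members, and number 2 gives the lowest nuclear medians in all 5 complexes.

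Summed over members, mitochondrial transcripts were at 12814, 13176 and 10208 CPM with desIgf1 and 7885, 10623 and 8255 CPM in controls. Nuclear members summed to 8092, 7843 and 9181 CPM with desIgf1 and 8485, 8914 and 8698 CPM in controls. The ratio of the mitochondrial to the nuclear sum was 1.58, 1.68 and 1.11 with desIgf1 and 0.929, 1.19 and 0.949 in controls. It was higher with desIgf1 in each same-numbered pair, while the groups overlapped because control 2 was above desIgf1 library 3. The mean log2 ratio was 0.52 ± 0.32 with desIgf1 and 0.02 ± 0.20 in controls (SD, n = 3 each), a difference of 0.50, with 0.77, 0.50 and 0.23 in pairs 1, 2 and 3. Without the libraries numbered 3, which stood apart, the difference was 0.63, the mitochondrial median 0.33 and the nuclear median -0.09. Without mt-Co1 the ratio was 1.02, 1.04 and 0.799 with desIgf1 and 0.656, 0.850 and 0.658 in controls. The ratio compares libraries with each other; as it leaves out the mitochondrial genes without unique reads, its size is no measure of the balance of the genomes. Mitochondrial members took 1.20% ± 0.15 of all counts with desIgf1 and 0.892% ± 0.145 in controls.

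**Figure D5:**
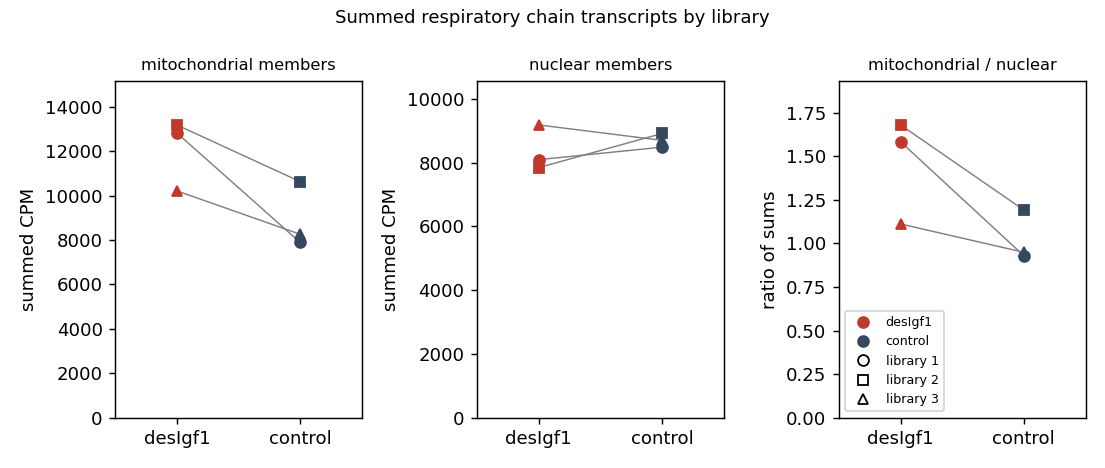
Summed CPM of the mitochondrial members (left), of the nuclear members (middle) and the ratio of the sums (right) in desIgf1 and control libraries; grey lines join libraries of the same number. The ratio is higher with desIgf1 in all 3 pairs, and the highest control (1.19) is above the lowest desIgf1 library (1.11).

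The ribosomal RNAs of the mitochondrion, which are no members, come from the same strand. mt-Rnr1 had 369, 456 and 280 CPM with desIgf1 and 234, 204 and 269 CPM in controls (log2 fold change 0.64 ± 0.19, edgeR adjusted p = 0.471, 0.275 with the block). mt-Rnr2 had 469, 660 and 435 CPM with desIgf1 and 284, 403 and 372 CPM in controls (0.56 ± 0.20, adjusted p = 0.530, 0.165 with the block). In both genes every desIgf1 library was above every control, as in 7.31% of all genes tested. The mRNA library kit selects polyadenylated RNA, and whether its capture of these RNAs differed between libraries was not tested.

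Nuclear members differed little, with more below 0 than above it. Of the 81 tested, 28 were above 0 and 53 below, where 49.1% of all genes tested were above. A log2 fold change within 0.2 of 0 was found in 66 (81.5%, against 56.4% of all genes tested, not matched for expression level). Of the rest, 8 were above and 7 below that range. Atp5g2, Cox6b2 and Cycs, among those above, and Atp5l, among those below, averaged at most 1.24 CPM in either group. Without desIgf1 library 3 the nuclear median was -0.16, and without desIgf1 library 2 it was close to 0. In same-numbered pairs 1, 2 and 3 it was -0.06, -0.14 and 0.04. As the median moved with the library, the nuclear members above and below 0 are not separate results. Groups did not overlap in 5 with higher values (Atp5f1, Atp5g2, Atp5s, Ndufb4 and Ndufs3) and 2 with lower ones (Ndufs7 and Ndufv1), where 7.31% and 6.18% of all genes tested did so in the 2 directions. The median coefficient of variation between libraries of a group was 10.4% with desIgf1 and 8.12% in controls. Among the 70 nuclear members at 10 CPM per kb or more, the fold changes ran from -0.35 to 0.24 with a median of -0.06, and 63 were within 0.2 of 0.

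In complex I, the 37 nuclear members tested had a median log2 fold change of -0.07, with 10 above 0 (49.1% of all genes tested were) and 15 lower in all 3 pairs (17.2% of all genes were). Ndufv1, the flavoprotein subunit that accepts electrons from NADH, had 81.7, 74.7 and 97.2 CPM with desIgf1 and 97.8, 104 and 104 CPM in controls. Every desIgf1 library was below every control. The log2 fold change was -0.27 ± 0.12 (edgeR adjusted p = 0.608, 0.319 with the block), and -0.41 without desIgf1 library 3, the highest of its group. Ndufs7, which carries the last iron-sulfur cluster before coenzyme Q, had 47.1, 46.1 and 52.6 CPM with desIgf1 and 56.4, 53.1 and 58.1 CPM in controls, also without overlap (-0.20 ± 0.10). Its neighbour in the electron path, Ndufs8, averaged 52.9 ± 8.0 CPM with desIgf1 and 60.2 ± 5.4 CPM in controls (SD, n = 3 each), with overlap. These 3 genes are core subunits of the matrix arm.

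Accessory subunits of complex I differed in both directions, though more were lower. Of the 14 genes tested with symbols beginning with Ndufa, 1 was above 0, and of the 10 with Ndufb, 4 were. Ndufb7 had 79.1, 69.9 and 102 CPM with desIgf1 and 87.7, 94.8 and 105 CPM in controls, lower in each pair although the groups overlapped. Ndufa9 averaged 77.5 ± 5.9 CPM with desIgf1 and 87.0 ± 5.2 CPM in controls (SD, n = 3 each). Its log2 fold change was -0.17 ± 0.10, and -0.26 without desIgf1 library 3, the highest of its group. Ndufb4 was higher in every desIgf1 library, at 4.41, 4.06 and 4.49 CPM against 2.83, 3.96 and 3.06 CPM in controls (0.39 ± 0.23, edgeR adjusted p = 0.652), but all its coding windows are shared with 3 pseudogenes. Ndufa4, named for complex I and now known as a subunit of complex IV, had 65.3, 45.0 and 72.2 CPM with desIgf1 and 76.8, 81.5 and 64.1 CPM in controls, a log2 fold change of -0.29 ± 0.19 that ran from -0.45 to -0.11 with 1 library left out. Its paralogue Ndufa4l2, known as a hypoxia-induced gene, had 1, 5 and 0 counts with desIgf1 and 0, 2 and 0 in controls and was not tested.

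Complex II, the succinate dehydrogenase of the citric acid cycle, had small differences in all 4 genes. Sdha, the flavoprotein, had 305, 299 and 322 CPM with desIgf1 and 318, 312 and 322 CPM in controls (log2 fold change -0.04 ± 0.08). Sdhb (the iron-sulfur subunit) and Sdhc and Sdhd (the membrane anchors) had log2 fold changes of -0.05 ± 0.12, -0.11 ± 0.09 and 0.02 ± 0.10. Their groups overlapped, and the edgeR adjusted p-values of the 4 genes ran from 0.735 to 0.960.

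In complex III, the 9 nuclear members had a median of -0.12. Uqcr11, a small accessory subunit, had 27.7, 23.2 and 34.5 CPM with desIgf1 and 34.0, 39.7 and 35.3 CPM in controls, with the lowest fold change of any nuclear member (-0.35 ± 0.16, edgeR adjusted p = 0.620, 0.375 with the block). It was -0.23 without desIgf1 library 2 and -0.54 without desIgf1 library 3. Library 3 with desIgf1 lay among the controls. Uqcrc1, a core protein on the matrix side, had 153, 137 and 178 CPM with desIgf1 and 170, 179 and 186 CPM in controls (-0.19 ± 0.12), lower in each pair, and its fold change ran from -0.32 to -0.11 with 1 library left out. Cyc1, the cytochrome c1 subunit, averaged 112 ± 14 CPM with desIgf1 and 121 ± 9 CPM in controls (SD, n = 3 each), with overlap. The 4 members above 0 were Uqcrh (hinge protein) at 0.14 ± 0.12, Uqcrc2 (the other core protein) at 0.12 ± 0.10, Uqcrfs1 (the Rieske iron-sulfur protein) at 0.11 ± 0.11 and Uqcrb at 0.08 ± 0.16, each with overlapping groups.

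In complex IV, the 13 nuclear members tested had a median of -0.001. The isoforms present were those of most tissues. Cox4i1 averaged 305 ± 18 CPM with desIgf1 and 302 ± 26 CPM in controls, and Cox6a1 124 ± 19 CPM with desIgf1 and 139 ± 7 CPM in controls (SD, n = 3 each). Cox4i2, Cox7b2, Cox8b and Cox8c had 0 counts in all libraries, which allows at most 0.0620 to 0.0859 CPM in a library, and the muscle form Cox6a2 had at most 2 counts. The muscle form Cox7a1 was low, at 2.23, 3.04 and 3.29 CPM with desIgf1 and 2.08, 2.37 and 2.18 CPM in controls (0.37 ± 0.26, or 0.23 without desIgf1 library 3), beside Cox7a2 at 89.7 ± 11.3 CPM with desIgf1 and 89.8 ± 2.6 CPM in controls.

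Cox7a2l, a paralogue known to join complexes III and IV in supercomplexes, of which C57BL/6 mice carry a shortened form, had 111, 129 and 113 CPM with desIgf1 and 99.8, 83.1 and 116 CPM in controls (0.24 ± 0.14, edgeR adjusted p = 0.650, with a range of 0.13 to 0.36 with 1 library left out), and 54.1% of its coding windows are shared with a pseudogene. Cox6b2, known as the testis form, was near 1 CPM in both groups, at 1.24 ± 0.43 with desIgf1 and 0.879 ± 0.416 in controls, beside Cox6b1 at 153 ± 19 CPM with desIgf1 and 167 ± 13 CPM in controls. The groups overlapped in both genes. Cox8a averaged 113 ± 11 CPM with desIgf1 and 120 ± 14 CPM in controls (SD, n = 3 each).

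Complex V was represented by nuclear subunits alone, with a median of -0.06 over 17. The catalytic head subunits Atp5a1 and Atp5b had the highest levels per length of the nuclear members, 280 and 239 CPM per kb, followed by Cox6b1 at 226, Cox4i1 at 196 and Cox8a at 188 CPM per kb. Atp5b had 924, 815 and 1113 CPM with desIgf1 and 1047, 1190 and 978 CPM in controls, and Atp5a1 had 812, 769 and 953 CPM with desIgf1 and 870, 975 and 890 CPM in controls. In both genes desIgf1 library 3 was high and library 2 low, and the groups overlapped.

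The genes of complex V without overlap had small or lowly counted differences. Atp5f1, of the peripheral stalk, had 128, 126 and 125 CPM with desIgf1 and 117, 124 and 117 CPM in controls (log2 fold change 0.08 ± 0.08). Atp5s, a coupling factor, had 3.33, 4.51 and 3.47 CPM with desIgf1 and 2.24, 2.72 and 3.09 CPM in controls (0.49 ± 0.25, edgeR adjusted p = 0.633, 0.381 with the block). The 3 genes of the c-ring protein were counted unequally. Atp5g3 averaged 228 ± 12 CPM with desIgf1 and 223 ± 29 CPM in controls, and Atp5g1 2.42 ± 0.70 CPM with desIgf1 and 2.48 ± 0.63 CPM in controls (SD, n = 3 each). Atp5g2 averaged 0.605 ± 0.057 CPM with desIgf1 and 0.379 ± 0.147 CPM in controls, and nearly all windows of Atp5g1 and Atp5g2 are shared with pseudogenes.

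The promoters of Uqcrc1 and Uqcr11 are shown as examples of sites that nuclear respiratory genes are known for, and not for the direction of their values. RefSeq promoter sequences (GRCm38.p6, 300 bases around the start) matched 68 of the 87 nuclear members. The NRF1 motif was searched as GCGCATGC or, on the other strand, GCATGCGC. In capitals are, in Uqcrc1, a match on each strand, overlapping and beginning 30 and 32 bases after the start, and in Uqcr11 CCGGAAGT (an ETS site as bound by GABP) at -66 and the NRF1 letters at -4.
Uqcrc1, chr9:108936398-108936697, plus strand: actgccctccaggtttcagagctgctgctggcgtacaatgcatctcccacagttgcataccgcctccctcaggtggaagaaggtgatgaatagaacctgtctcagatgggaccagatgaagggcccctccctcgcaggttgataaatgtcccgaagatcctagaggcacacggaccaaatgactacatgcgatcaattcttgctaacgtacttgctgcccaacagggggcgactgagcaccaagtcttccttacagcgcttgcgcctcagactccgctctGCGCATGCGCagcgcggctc
Uqcr11, chr10:80406772-80407071, minus strand: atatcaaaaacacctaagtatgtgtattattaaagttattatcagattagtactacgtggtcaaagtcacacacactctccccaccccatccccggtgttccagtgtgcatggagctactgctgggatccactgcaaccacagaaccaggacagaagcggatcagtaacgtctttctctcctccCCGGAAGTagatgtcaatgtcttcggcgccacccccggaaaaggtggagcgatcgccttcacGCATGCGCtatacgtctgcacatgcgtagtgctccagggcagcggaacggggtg
Both strands were searched. GCGCATGC was in 11 of the 68 members (16.2%) and in 3.05% of 27025 genes with a promoter sequence, or 3.93% of the 17491 that are protein coding. AAGATGGC (YY1) was in 9 members (13.2%, against 3.57% of coding genes). CCGGAAGT was in 5 (7.35%, against 5.69%), and the E-box CACGTG, which was searched as well, in 5 (7.35%, against 8.91%). Matches were also in members with values above 0, as NRF1 in Ndufa6 (0.24 ± 0.16) and Atp5g2 (0.68 ± 0.40) and CCGGAAGT in Uqcrh. A match describes the letters only; binding was not measured.

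Genes around the chain were described from lists of assembly factors and related pathways. Without the block 0 of all genes were called, so 0 in every list was fixed in advance. With the block and with DESeq2, 0 genes of these lists were called beside 0.318% and 1.44% of all genes. Among assembly factors, the 16 of complex I had a median log2 fold change of -0.07, the 10 of complexes II and III 0.14, the 22 tested of complex IV -0.03 and the 5 of complex V 0.17. In the list for complex IV, Cox20, known in human cells as a chaperone for the product of mt-Co2, averaged 23.6 ± 2.2 CPM with desIgf1 and 16.8 ± 1.6 CPM in controls (SD, n = 3 each; log2 fold change 0.49 ± 0.14, edgeR adjusted p = 0.451). Cmc1, known in human cells to bind the newly made product of mt-Co1, averaged 25.9 ± 3.5 CPM with desIgf1 and 18.5 ± 1.9 CPM in controls (0.49 ± 0.15, adjusted p = 0.497). Coa7, another of these factors, went the other way without overlap, at 9.07 ± 0.68 CPM with desIgf1 and 12.1 ± 0.1 CPM in controls (-0.42 ± 0.15, adjusted p = 0.530).

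The 30 genes of mitochondrial DNA maintenance, transcription and RNA handling had a median of -0.02. Polg, the mitochondrial DNA polymerase, was at 175, 176 and 177 CPM with desIgf1 and 224, 207 and 202 CPM in controls, without overlap (-0.26 ± 0.08, edgeR adjusted p = 0.505, 0.280 with the block). Tfam, which packages mitochondrial DNA and starts its transcription, averaged 67.8 ± 1.7 CPM with desIgf1 and 68.5 ± 10.6 CPM in controls. The polymerase Polrmt averaged 40.0 ± 4.2 CPM with desIgf1 and 45.6 ± 2.3 CPM in controls, and Lrpprc, which stabilises mitochondrial mRNAs, 83.6 ± 5.1 CPM with desIgf1 and 84.3 ± 14.2 CPM in controls. The 76 mitochondrial ribosomal protein genes tested had a median of -0.09, with 0 higher and 3 lower without overlap, where 7.31% and 6.18% of all genes tested were.

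Regulators of mitochondrial biogenesis had a median of 0.02 over 7 genes tested, and Ppargc1b averaged 4.19 ± 0.37 CPM with desIgf1 and 5.46 ± 1.05 CPM in controls (-0.38 ± 0.23, edgeR adjusted p = 0.654). The medians were -0.07 for 18 genes of the citric acid cycle and pyruvate dehydrogenase, -0.06 for 13 of coenzyme Q synthesis and -0.02 for 10 inner membrane carriers. The 8 genes listed as hypoxia-linked had a median of 0.19, with 6 above 0. Among them Pdk1, a kinase that inhibits pyruvate dehydrogenase, averaged 272 ± 58 CPM with desIgf1 and 200 ± 42 CPM in controls (0.45 ± 0.20, adjusted p = 0.609, 0.114 with the block). Bnip3l, a mitophagy receptor, averaged 127 ± 25 CPM with desIgf1 and 95.5 ± 14.2 CPM in controls (0.41 ± 0.17, adjusted p = 0.608). In both genes the groups overlapped. Miga2, of the same list, was lower with desIgf1 without overlap (-0.29 ± 0.13, edgeR adjusted p = 0.609).

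The other genes of smallest p in each list also had adjusted p-values over 0.05 and modest differences. In the assembly of complex I, log2 fold changes were -0.20 ± 0.14 for Ecsit and 0.21 ± 0.15 for Ndufaf3. Ttc19, which supports complex III, was at 0.31 ± 0.15, and Sdhaf1, which helps insert the iron-sulfur clusters of complex II, at 0.29 ± 0.20. Atpaf1 and Atpaf2, chaperones of the catalytic head of complex V, were at 0.29 ± 0.18 and -0.16 ± 0.10. Mterf2, of the mitochondrial transcription termination factor family, was at 0.25 ± 0.14. Pprc1, a coactivator related to Ppargc1b, was at -0.34 ± 0.15, and Gabpb1, a subunit of GABP, at 0.24 ± 0.13. Pdhb, of pyruvate dehydrogenase, was at 0.18 ± 0.10 and Suclg2, of succinyl-CoA ligase, at -0.31 ± 0.17. Coq10a and Coq10b, which bind coenzyme Q, were at 0.29 ± 0.13 and 0.35 ± 0.19, and the carriers Slc25a11 (oxoglutarate) and Slc25a13 (aspartate and glutamate) at 0.20 ± 0.09 and -0.32 ± 0.16. The edgeR adjusted p-values of these genes ran from 0.608 to 0.701 without the block.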

How the data were processed

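The deposited files hold whole-number read counts per gene, not normalized. The submitters' processing notes name HTSeq 0.7.2, STAR 2.5.3, Trim Galore 0.4.5, R 3.4.3, SAMtools 0.1.18 and DESeq2 1.18.1, and GRCm38 (mm10) as build. Settings, annotation release and strandedness of counting are not given in these sources, and overlapping and antisense genes are therefore uncertain. Summary lines that name no gene stayed out of sizes and tests: 13.5 to 15.7% of uniquely placed reads overlapped no gene and 0.712 to 0.761% were ambiguous. GENCODE M21 matched 37607 of 39179 identifiers.

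Counts in genes were 40081675, 42441076 and 47929948 in desIgf1 libraries 1 to 3 and 45874707, 42860119 and 34567899 in control libraries 1 to 3. No libraries of a group were copies of each other (chi-square per degree of freedom 40.5 to 130). All genes were tested together with edgeR 4.0.16 in R 4.3.3 (TMM, filterByExpr at 10 counts, quasi-likelihood with robust fit, group as the only term), with Benjamini-Hochberg adjustment over 13846 genes and a threshold of 0.05. CPM used TMM factors; standard errors are the log2 fold change over the root of F; pair differences used a pseudocount of 0.1 CPM. Floors for a count of 0 used 3 counts and cover counting error only. Alternatives were DESeq2 1.42.0 (no independent filtering), voom of limma 3.58.1, other factors and filters, the replicate block and libraries left out. Both edgeR designs were run on simulated counts with group differences but no replicate effect. This simulation cannot show how either design acts on paired libraries.

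The labels number the libraries 1 to 3 in both groups. Across genes, the deviation from the group mean correlated between libraries of equal number at 0.59, 0.32 and 0.55, and between different numbers at 0.048 or less. On this evidence from the data, which no label gives, numbers were treated as pairs in the pair differences and the blocked fits. The main fit did not use the pairing. It gave the fold changes, standard errors and adjusted p-values that are not marked as blocked or from another fit.

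Members were taken by symbol, and this rule and the gene lists were set with earlier results of these data known. Genes named are all mitochondrial members, isoform pairs, complex II, Cycs and Cyc1, and the 5 nuclear members of highest level per kb. Also named are the 8 nuclear members of smallest p without and with the block at 1 CPM or more. From each list came the 2 genes of smallest p, plus Tfam, Polrmt, Ppargc1b, Lrpprc and the ribosomal RNAs. Other members were named after their values were seen, for non-overlapping groups, shared sequence, complex III or promoter matches, as were Coa7 and Miga2. Sequences came from GENCODE M21 with GRCm38 and from RefSeq.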

Additional observations from a re-analysis of the deposited data

How the results depend on the processing

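No gene of the study passed the threshold in the fit without the block; 1130 of 13846 had an unadjusted p under 0.05. The count over all genes was 16 without the low-count filter, 199 with DESeq2 and 44 with the replicate block, and with the replicate block it was 72, 620 and 1069 without the libraries numbered 1, 2 and 3. Members called numbered 0 in all these fits but the replicate block without number 2 (5) and without number 3 (1), so these calls rest on which pair is left out; the cause was not tested. Leaving out 1 library without the block called 0 genes and 0 members. The mitochondrial median ran from 0.24 to 0.49 and the log2 ratio difference from 0.38 to 0.68 with 1 library left out. The ratio difference was 0.50 with the block and 0.38 as a difference of mean log2 CPM. Without mt-Nd6 and members overlapped by another gene on either strand it was 0.36. That version keeps mt-Cytb as the only counted mitochondrial member, so it says nothing on the others. The DESeq2 and voom versions of the ratio were not run. The nuclear median ran from -0.16 (without desIgf1 replicate 3) to -0.0017 (without desIgf1 replicate 2). Other factors, filters and library sizes without mitochondrial genes moved neither median by more than the SD of its library medians. That SD was 0.23 for the mitochondrial and 0.079 for the nuclear members. As it is larger than the size of the nuclear median (-0.05), it is a wide bound there. With all libraries kept, the replicate block changed no call of a member.

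The sign of 10 named members turned under some alternative, Cycs and Atp5b among them, which were not near 0 (0.46 and -0.17). With 1 library left out, mt-Nd6 ran from -0.087 to 0.18, Cox4i1 from -0.050 to 0.091, Cox8a from -0.20 to 0.015, Cox7a2 from -0.13 to 0.072, Sdhb from -0.16 to 0.033 and Sdhd from -0.033 to 0.11. Cox7a2 was at 0.0043 with upper-quartile factors and 0.0033 without the filter. With the block and without pair 2, Atp5a1 was at 0.00024, Atp5b at 0.0041, Cox4i1 at -0.029, Cox7a2 at 0.075, Sdhb at 0.077 and Cyc1 at 0.015. Without pair 1, mt-Nd6 was at -0.020, Cycs at -0.087 and Sdhd at -0.0086, and without pair 3, Sdhd was at -0.0060. Reads with a unique place limit every member with near-identical copies, and 6 mitochondrial genes could not be measured.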

Other observations

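The mitochondrial ribosome, like the respiratory chain, joins products of both genomes. Its 76 tested protein genes, all nuclear, stood at a median of -0.09 on the log2 scale, and its ribosomal RNAs, from the mitochondrial genome, a median of 0.60; the difference was not tested. Mrpl38, a protein of the large subunit, averaged 30.2 ± 3.1 CPM with desIgf1 and 38.6 ± 4.2 CPM in controls (SD, n = 3 each), a log2 fold change of -0.35 ± 0.13 with an edgeR adjusted p of 0.560. Mrps18b, of the small subunit, averaged 16.6 ± 3.0 CPM with desIgf1 and 21.8 ± 1.3 CPM in controls (-0.39 ± 0.16, adjusted p = 0.608). In pairs 1, 2 and 3 the median of the ribosomal proteins was -0.09, -0.27 and 0.06, and that of the ribosomal RNAs 0.69, 0.94 and 0.14.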
